A study of Mus musculus with 8 samples.

Results

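Colonic mucosa from 6 mice that drank dextran sulfate sodium (DSS) was compared with colonic mucosa from 2 mice that did not, to find the transcripts that stood beyond both controls in every DSS-exposed animal whatever the enema contained. All 8 animals were male wild-type C57BL/6J mice. Each of 4 groups held 2 of them, and tissue was taken on day 7. The controls and the DSS model group received a saline enema. The other DSS groups received either mesalazine at 50 mg/kg, an aminosalicylate given for ulcerative colitis, or Kuiyangling at 10 g/kg, and every enema had a volume of 0.2 ml. DSS was offered at 3% in the drinking water of the 6 exposed animals. Of 8 libraries, 6 were therefore DSS-exposed, and 4 of these 6 differed from the controls in both DSS and the enema, so that DSS and drug cannot be told apart within those 4. No label names a batch. P-values measure the spread between these few animals.

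DSS is a sulfated polysaccharide that is toxic to the colonic epithelium and opens the mucosal barrier to luminal bacteria. Neutrophils and monocytes are then recruited by chemokines, stromal cells remodel the matrix with metalloproteinases and collagens, and surviving crypts reseal the surface with a wound-associated epithelium. The resting colon relies on goblet cells for mucus, on tuft cells as chemosensors, and on a low, constant interferon response to the microbiota.

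Libraries held between 15560946 and 17843715 counts, and between 15217 and 15689 genes were detected in each. At that depth 3 counts correspond to 0.149 to 0.212 CPM (read counts scaled to library sizes that were adjusted by TMM), and such counting limits cover counting error only. A pair of libraries stood apart before any comparison. Mesalazine 1 and control 2 had mean Spearman correlations of 0.940 and 0.945 with the remaining libraries, against 0.963 to 0.974 for the others. The controls also differed from each other: MHC class II genes summed to 127 CPM in control 1 and 2274 CPM in control 2, with 195 to 388 CPM in the DSS libraries. Colonocyte and goblet cell genes were abundant in all 8 libraries, with Muc2 at 3950.3 to 12855 CPM and the colonocyte enzyme gene Car1 at 3280.3 to 12515 CPM. In bulk RNA, fewer cells of a type and less RNA per cell cannot be told apart.

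Over 13381 tested genes, edgeR's quasi-likelihood test of the 3 DSS groups' mean against the controls, with Benjamini-Hochberg adjustment, called 293 genes (2.19%), 113 higher (0.844%) and 180 lower (1.35%). Of these, 274 (2.05% of tested genes) also lay beyond both controls in all 6 DSS libraries, 110 higher (0.822%) and 164 lower (1.23%), and are called shifted below. Position alone was common: 3417 genes (25.5%) lay beyond both controls in all 6 DSS libraries, called or not. An unadjusted p under 0.05 in the edgeR test was common too, at 2756 of the 13381 genes. The DESeq2 total is given further below. A stricter distance, at least 2-fold between the nearest DSS library and the nearest control, was met by 79 of the 110 higher genes and 47 of the 164 lower ones. Over all tested genes, called or not, it was met by 175 (1.31%), 120 higher (0.897%) and 55 lower (0.411%). Among higher genes the log2 change ran from 1.01 to 9.84 with a median of 2.84, and among lower genes from -9.26 to -0.99 with a median of -2.01, while the median over all tested genes was -0.03. For 9 higher genes both controls had 0 counts, where a fitted change is no bound; the median stayed 2.84 with these at their bound, and the list medians given below did not move at 2 decimals.

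Most calls needed control 2. Without control 2, the remaining 7 libraries gave 3 called genes, Mptx1, Alb and Nxpe2, all lower. Without control 1 they gave 489, and without mesalazine 2 they gave 2249. Each of the 274 shifted genes kept its direction when any single library was left out, but the number still called was 185 without control 1, 3 without control 2, 113 without model 1, 44 without model 2, 166 without mesalazine 1, 274 without mesalazine 2, 110 without Kuiyangling 1 and 120 without Kuiyangling 2. The kept direction follows from the definition of a shifted gene, since every DSS library already lay beyond both controls. With 1 control left, its spread is assumed to equal that of the other groups. Control 2 lay above control 1 for 127 of the 164 lower genes (77.4%) and for 23 of the 110 higher genes (20.9%), against 47.7% of all tested genes. The median distance of the DSS libraries was 2.12 from control 1 and 2.64 from control 2 for higher genes, and -1.43 and -2.13 for lower genes, in log2 units. Beside most groups of genes below, the adjusted p without control 2 is given for the group or for some of its genes.

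**Figure D1:**
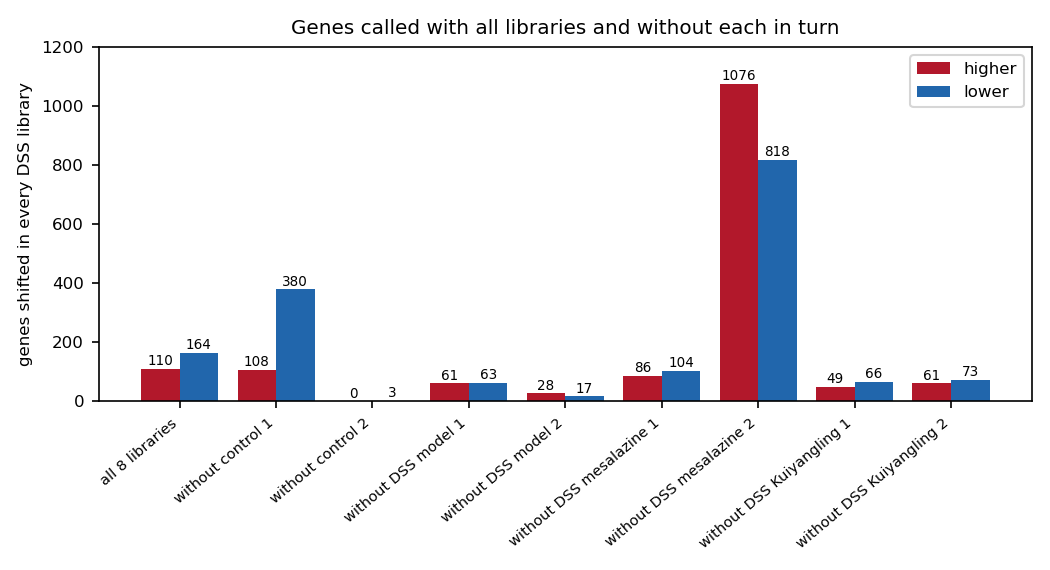
Number of genes shifted in every DSS library (vertical axis), higher in red and lower in blue, with all 8 libraries and with each library left out in turn. The counts are 110 and 164 with all libraries, 0 and 3 without control 2, and highest without mesalazine 2.

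**Figure D2:**
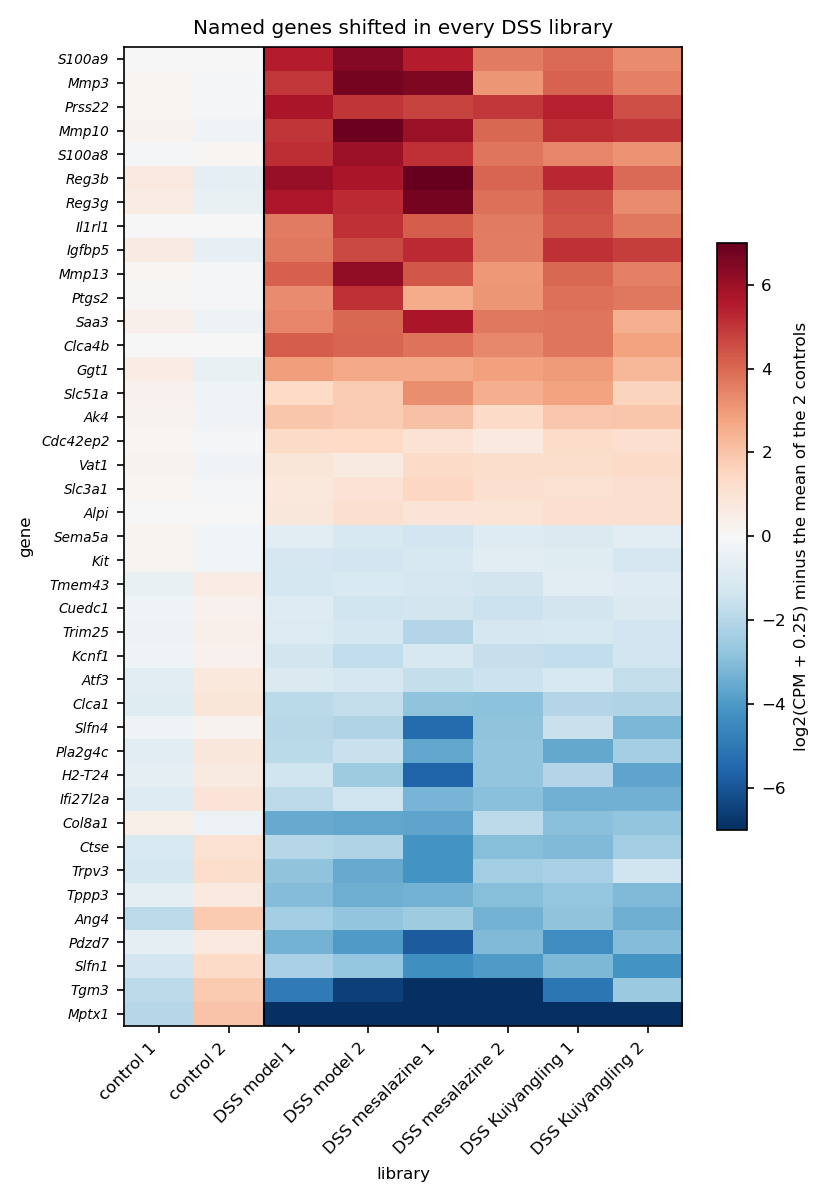
Log2(CPM + 0.25) of the shifted genes named for their size of change, narrow range or abundance, in each of the 8 libraries, minus the mean of the 2 controls; colour is clipped at the ends of the scale and the vertical line separates controls from DSS. The scale ends at 7 in either direction. Every gene keeps 1 colour over the 6 DSS libraries, and the 2 controls differ visibly for Mptx1, Tgm3 and Ang4.

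Signals that recruit neutrophils, and some transcripts of neutrophils themselves, rose from control levels of a few counts or none. Among 10 tested neutrophil-attracting chemokines and growth factors, Cxcl2, Cxcl3 and Cxcl5 were shifted higher and none lower, with a list median of 2.10. Their products act on the receptor CXCR2, and transcripts of Cxcr2 itself were too few to test, at 0 counts over the controls and 28 over the DSS libraries. These were 9 and 16 in the model, 0 and 3 with mesalazine, and 0 and 0 with Kuiyangling. The proximal promoters of Cxcl2 and Cxcl3 are shown because both carry the letters of the NF-kB motif close to the start. They were picked after the values were seen. The windows hold the 100 bases of RefSeq sequence just before the annotated gene start, on GRCm38.p6: Cxcl2, chr5:90903799-90903898, plus strand, and Cxcl3, chr5:90786001-90786100, plus strand, and capitals mark NF-kB (GGG, any 2 bases, then TTTCC) and the TATA box (TATAAA).
Cxcl2: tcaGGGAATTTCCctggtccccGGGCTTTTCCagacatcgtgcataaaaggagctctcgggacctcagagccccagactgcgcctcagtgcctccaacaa
Cxcl3: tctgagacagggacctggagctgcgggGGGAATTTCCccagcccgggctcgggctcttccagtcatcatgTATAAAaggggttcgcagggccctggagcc
Cxcl2 held a match from -97 to -88 and another from -78 to -69 relative to the start, and Cxcl3 had 1 from -73 to -64.

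Cxcl2 stood at 0.0495 and 0.0617 CPM in the controls, 10.1 and 12.5 in the model, 3.26 and 2.80 with mesalazine, and 2.17 and 0.935 with Kuiyangling, replicate 1 before replicate 2 here and below. Model libraries were highest and Kuiyangling 2 lowest, and no DSS library reached down to the controls. Against 2 control counts, the pooled level of Cxcl2 was higher by 92.4-fold with a 95% counting interval of 25.5 to 765. The fitted log2 change, in which the 3 DSS groups weigh equally, was 5.91 (SE 0.66, adjusted p = 0.00676). Cxcl5, made largely by epithelium and stroma, had 0 counts in both controls and 4.28 and 6.56 CPM (model), 1.42 and 1.17 CPM (mesalazine) and 4.21 and 3.58 CPM (Kuiyangling), at least 42.7-fold higher with the controls at a floor of 3 counts over the group (adjusted p = 0.00721). Cxcl3 was at least 20.1-fold higher (adjusted p = 0.0213). Cxcl1 lay above the controls in all 6 DSS libraries without passing the test (log2 change 2.84, SE 0.64, adjusted p = 0.0524). The 3 shifted chemokines had, without control 2, adjusted p of 0.0688 to 0.187.

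S100a9 and S100a8 encode calprotectin, the main cytosolic protein pair of neutrophils. S100a9 was at 0 in both controls and at 10.9 and 21.0 CPM (model), 10.9 and 2.86 CPM (mesalazine) and 3.65 and 2.23 CPM (Kuiyangling), at least 98.9-fold higher (adjusted p = 0.0132). The spread within the DSS libraries was wide, with both Kuiyangling libraries and mesalazine 2 under the other 3. S100a8, with 1 control count, was higher by 265-fold with a 95% counting interval of 47.3 to 10467 (adjusted p = 0.00721). For Retnlg the difference was at least 22.7-fold (adjusted p = 0.0132). The lectin receptor gene Clec4e was higher by at least 13.5-fold (adjusted p = 0.034). Among all markers, 4 of 14 tested neutrophil markers were shifted higher, with a list median of 3.21. The single lower member, the schlafen Slfn4, is described with its family below and makes up most of the list's sum, 3077 and 4234 CPM in controls and 621 to 1380 CPM over DSS. The other abundant markers overlapped between the groups. The surface marker Ly6g stood at 10.5 and 137 CPM in the controls and 113 to 843 CPM over DSS (log2 change 1.63, SE 0.90, adjusted p = 0.329). Cd177, a neutrophil surface glycoprotein, stood at 190.2 and 177 CPM in the controls and 50.6 to 191 CPM over DSS (log2 change -0.76, SE 0.39, adjusted p = 0.298). Elane and Padi4, genes of granules and of chromatin citrullination, had 1 and 1 counts over the controls against 1 and 3 over DSS, too few to test. Without control 2 the 5 shifted members had adjusted p of 0.0721 to 0.291.

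Cytokines of barrier alarm were shifted as well. Il1a, Il1b, Il33, the IL-33 receptor gene Il1rl1 and Ptgs2, the inducible cyclooxygenase, rose, 5 of 14 tested members, with a list median of 2.22 and none called lower. Ifng, the type II interferon, had a log2 change below 0 without a call (log2 change -2.11, SE 1.22, adjusted p = 0.348), as did Lif (log2 change -0.24, SE 0.32, adjusted p = 0.697). Il33, an alarmin released from damaged barrier cells, stood at 0.0991 and 0 CPM in the controls against 2.52 and 3.05 (model), 1.98 and 2.33 (mesalazine) and 3.16 and 2.44 (Kuiyangling). The 6 DSS values lay within a 0.64 log2 range, narrow beside a median range of 1.65 for the higher genes, and the ratio over 2 control counts was 47.0-fold with a 95% counting interval of 12.9 to 389.9 (adjusted p = 0.0132). Il1rl1, which encodes its receptor ST2, was at 0.347 and 0.308 CPM in the controls, 6.92 and 19.5 in the model, 10.5 and 6.83 with mesalazine, and 11.6 and 7.32 with Kuiyangling (log2 change 4.93, SE 0.60, adjusted p = 0.00771). No DSS library came near the controls for either gene.

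Il1b, the inflammasome-processed cytokine, stood at 0.595 and 1.17 CPM in the controls against 13.7 and 36.1 (model), 7.50 and 5.08 (mesalazine) and 3.34 and 5.71 (Kuiyangling) (log2 change 3.35, SE 0.54, adjusted p = 0.0175). Model 2 was far above the rest, Kuiyangling 1 was lowest, and the unadjusted p of the difference among the 3 DSS groups was 0.00108 (adjusted p = 0.671). Ptgs2 was at 0.297 and 0.247 CPM in the controls and ran from 2.90 to 18.03 CPM, with a median of 5.64, over the DSS libraries (log2 change 4.55, SE 0.66, adjusted p = 0.0137). Inhba, the activin A subunit, had no control count and was at least 38.9-fold higher (adjusted p = 0.0137). Il6 and Tnf, the classical markers of colitis severity, were not called. Il6 had 2 control counts and ran from 0.309 to 1.79 CPM over DSS (adjusted p = 0.12 by edgeR). Tnf gave log2 change 0.29, SE 0.31, adjusted p = 0.617, with 3.96 and 4.62 CPM in the controls against 14.3 and 9.95 (model), 3.61 and 2.63 (mesalazine) and 4.27 and 3.37 (Kuiyangling), so that only the model libraries stood above both controls. Without control 2 the 5 shifted members had adjusted p of 0.102 to 0.291.

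Proteases that cut matrix and activate plasminogen rose, and so did inhibitors of both. Of 20 tested members, 9 were shifted higher and 0 lower, with a list median of 2.88 against -0.03 over all tested genes. The stromelysins Mmp3 and Mmp10 and the collagenase Mmp13 lie in 1 metalloproteinase cluster, and their promoters are shown because each carries an AP-1 motif near the start, as Mmp3, chr9:7445722-7445821, plus strand, Mmp10, chr9:7502242-7502341, plus strand, and Mmp13, chr9:7272414-7272513, plus strand. Capitals mark AP-1 (TGANTCA, which reads the same on both strands) and the TATA box.
Mmp3: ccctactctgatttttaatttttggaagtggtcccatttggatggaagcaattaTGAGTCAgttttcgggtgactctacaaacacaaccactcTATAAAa
Mmp10: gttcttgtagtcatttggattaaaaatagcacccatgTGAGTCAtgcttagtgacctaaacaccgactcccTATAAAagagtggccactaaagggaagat
Mmp13: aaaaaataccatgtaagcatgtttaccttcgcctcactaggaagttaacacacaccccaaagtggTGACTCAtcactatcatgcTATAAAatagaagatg
The AP-1 letters lay from -46 to -40 in Mmp3, from -63 to -57 in Mmp10 and from -35 to -29 in Mmp13.

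Mmp13 was at 0.991 and 0.802 CPM in the controls, 20.4 and 84.5 in the model, 22.7 and 9.11 with mesalazine, and 17.9 and 12.9 with Kuiyangling (log2 change 4.69, SE 0.70, adjusted p = 0.0137). Model 2 held the highest value and mesalazine 2 the lowest, and all 6 lay above both controls. Mmp10 ran from 4.61 to 34.4 CPM over DSS and, over 2 control counts, was higher by 254-fold with a 95% counting interval of 70.1 to 2098 (adjusted p = 0.0132). Mmp3, with 1 control count, ran from 2.04 to 28.2 CPM and was higher by 400.3-fold with a 95% counting interval of 71.7 to 15826 (adjusted p = 0.0309). The epithelial serine protease Prss22 had the narrowest DSS range of these 4, at 0.0495 and 0 CPM in the controls and 13.96 and 8.69 (model), 7.15 and 8.29 (mesalazine) and 11.5 and 5.97 CPM (Kuiyangling). Over 1 control count it was higher by 334-fold with a 95% counting interval of 59.8 to 13205 (adjusted p = 0.00433). Its DSS values spanned a 1.21 log2 range, against 3.71 for Mmp3.

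Plasminogen activators rose in the form of Plau, the urokinase (log2 change 3.67, SE 0.71, adjusted p = 0.0341), and Plat, the tissue activator (log2 change 3.07, SE 0.67, adjusted p = 0.049). The urokinase receptor gene Plaur, outside the list, gave log2 change 1.57, SE 0.32, adjusted p = 0.0419. Plaur barely cleared the controls, with mesalazine 2 at 9.92 CPM against 9.66 CPM in control 1. Serpine2, which encodes a serine protease inhibitor, rose as well (log2 change 3.95, SE 0.81, adjusted p = 0.0419). Timp1, the metalloproteinase inhibitor, was, over 2 control counts, higher by 29.1-fold with a 95% counting interval of 7.91 to 242 (adjusted p = 0.0461). The metalloproteinase genes Mmp14, Mmp15 and Mmp28 gave log2 changes of -0.27, -0.56 and -0.31 and were not called. Leaving out control 2 gave these 9 members adjusted p of 0.0596 to 0.38.

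Most stromal matrix genes rose. Among 22 tested collagens and other matrix genes, 12 were shifted higher and 1 lower, with a list median of 2.33. Fibrillar collagens (Col1a1, Col1a2, Col3a1, Col5a1, Col5a2), basement membrane collagens (Col4a1, Col4a2, Col18a1), Col6a3 and Col12a1 all rose, with Lox and Sparc. Col3a1 stood at 13.7 and 3.64 CPM in the controls against 25.03 and 39.1 (model), 47.9 and 31.5 (mesalazine) and 83.9 and 67.8 (Kuiyangling) (log2 change 2.40, SE 0.48, adjusted p = 0.0369). Both Kuiyangling libraries were highest and control 1 was above control 2, and the groups did not overlap. Col18a1, the basement membrane source of endostatin, was at 1.73 and 0.863 CPM in the controls and ran from 8.52 to 31.2 CPM, with a median of 14.9, over the DSS libraries (log2 change 3.64, SE 0.52, adjusted p = 0.0132). Col5a2, which nucleates fibrils, gave log2 change 3.06, SE 0.43, adjusted p = 0.0132, and Lox, the lysyl oxidase that cross-links collagen, was at least 29.4-fold higher than 0 control counts (adjusted p = 0.0132).

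Not every collagen rose: of 28 tested collagen genes 11 were shifted higher and 1, Col8a1, lower. Below both controls in all DSS libraries lay 3, Col8a1 among them, a share near the 11.3% of all tested genes. The other two were Col16a1 (log2 change -1.14, SE 0.34, adjusted p = 0.117) and Col20a1 (log2 change -1.05, SE 0.36, adjusted p = 0.156), neither of them called. Col8a1's product is a short-chain network collagen, and the transcript fell from 22.7 and 12.5 CPM in the controls to 1.26 and 1.13 (model), 1.06 and 4.55 (mesalazine) and 1.98 and 2.23 CPM (Kuiyangling; log2 change -3.19, SE 0.42, adjusted p = 0.012). Decorin (Dcn; log2 change 3.55, SE 0.59, adjusted p = 0.0202) and the insulin-like growth factor binding proteins Igfbp4 (log2 change 3.29, SE 0.47, adjusted p = 0.0132), Igfbp5 (log2 change 4.82, SE 0.65, adjusted p = 0.012) and Igfbp7 (log2 change 2.88, SE 0.55, adjusted p = 0.0328) rose with the collagens, as did the stromal regulators Foxf1 (log2 change 3.04, SE 0.55, adjusted p = 0.0253) and Bmp4 (log2 change 3.02, SE 0.61, adjusted p = 0.0379). When control 2 was left out, the 13 shifted matrix genes had adjusted p of 0.0688 to 0.398.

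Markers of other tissue parts moved beside the matrix genes. All 4 tested globin genes were shifted higher; Hba-a1 was at 1.83 and 0.740 CPM in the controls and ran from 5.85 to 22.2 CPM, with a median of 16.3, over the DSS libraries (log2 change 3.56, SE 0.65, adjusted p = 0.0254), and Hbb-bs gave log2 change 3.31, SE 0.65, adjusted p = 0.0361. Paired globin genes are nearly identical, so the counting could have split their reads. Red blood cell genes summed to 8.27 and 2.65 CPM in the controls and 20.1 to 80.7 CPM over DSS. For the 4 globin genes the adjusted p without control 2 was 0.27 to 0.398. The 12 tested endothelial genes had a median of 1.98, with 5 above both controls in all DSS libraries (14.3% of all tested genes were). By edgeR 0 were called, with 7 at an unadjusted p under 0.05, and by DESeq2 5. Over all 13381 tested genes, 2756 had an unadjusted p under 0.05 by edgeR. Cdh5, the cadherin of endothelial junctions, stood at 0.149 and 0 CPM in the controls against 0.377 and 1.19 (model), 1.06 and 0.409 (mesalazine) and 1.79 and 2.02 (Kuiyangling). Their sum was 10.9 and 10.5 CPM in controls and 12.7 to 45.6 CPM over DSS. Smooth muscle genes had a median of -1.18 over 12, with 0 called by edgeR, 7 at an unadjusted p under 0.05 and 2 called by DESeq2. The part of these other cell types in the collagen values was not tested.

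**Figure D3:**
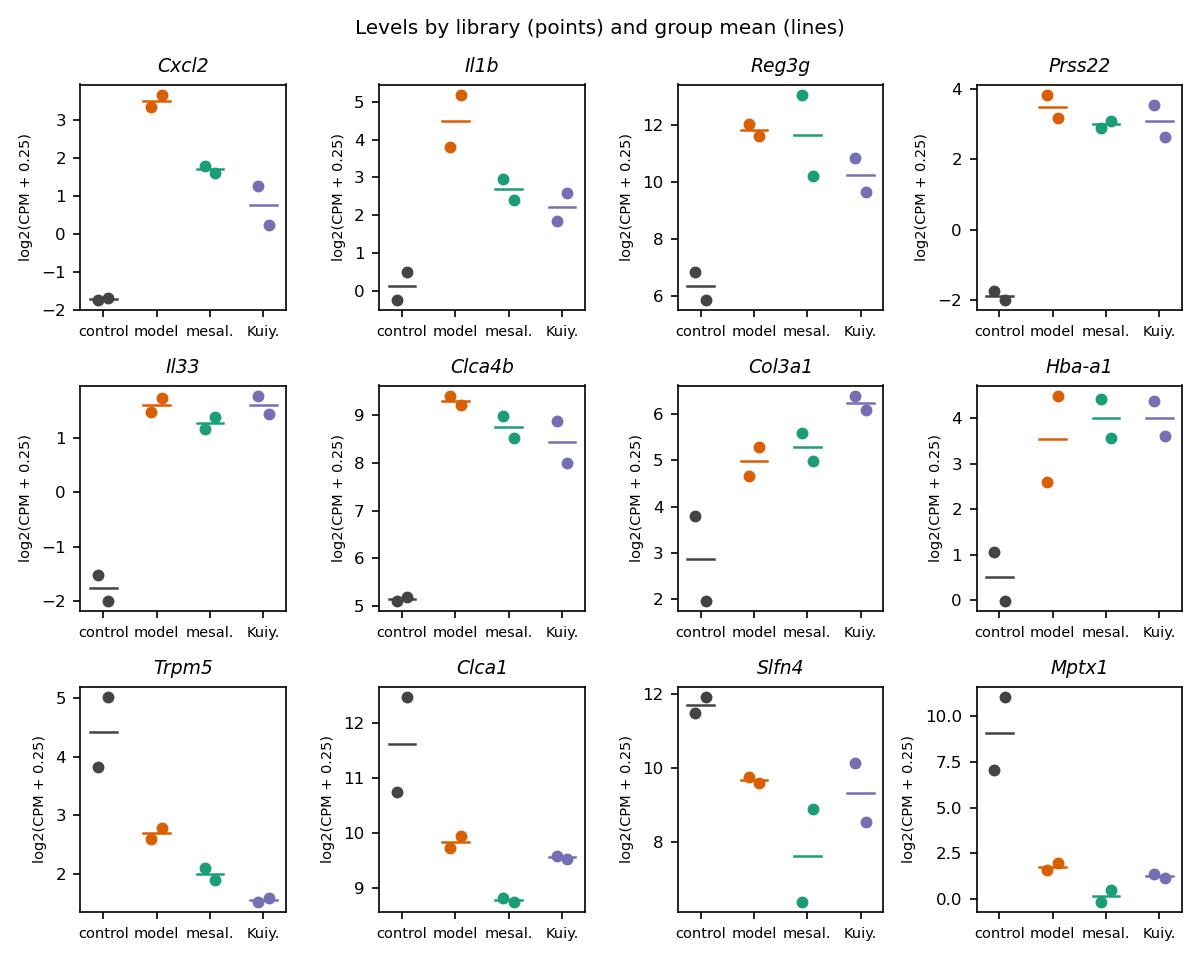
Log2(CPM + 0.25) of 12 shifted genes in each library (points) with the group mean (line), for control, DSS model, mesalazine and Kuiyangling. The 6 DSS points lie on 1 side of both controls in every panel, with the widest control gap in Mptx1 (134 and 2151 CPM).

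The epithelium changed in both directions. Secreted lectins of the Reg3 family, which act on luminal bacteria, rose. Reg3b stood at 428 and 162 CPM in the controls against 18187 and 14109 (model), 46439 and 4461 (mesalazine) and 10218 and 4073 (Kuiyangling) (log2 change 5.5997, SE 1.03, adjusted p = 0.0274). Mesalazine 1 was highest and Kuiyangling 2 lowest, and both were far above the controls. Reg3g (log2 change 5.05, SE 0.85, adjusted p = 0.0212) and Reg3a (log2 change 4.48, SE 0.81, adjusted p = 0.0249) rose too, but these 3 genes are similar in sequence and the counting could have split reads between them. In the list of epithelial antimicrobial defence, 3 of 18 tested genes were shifted higher (Reg3b, Reg3g, Saa3) and 2 lower (Ang4, Mptx1), with a median of 0.30. Saa3, an acute-phase protein, was at 9.81 and 5.92 CPM in the controls and ran from 43.7 to 421 CPM, with a median of 103, over the DSS libraries (log2 change 4.01, SE 0.65, adjusted p = 0.018). Lcn2, the siderophore-binding lipocalin, was not called (log2 change 4.76, SE 1.13, adjusted p = 0.0616), with DSS values from 3.12 to 58.4 CPM. Without control 2, Reg3b had an adjusted p of 0.279, Reg3g of 0.232 and Saa3 of 0.22.

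Of 21 tested genes of regenerating and wound-associated epithelium, Clca4b, Tgm2, Plaur and Il33 were shifted higher and none lower, with a list median of 0.75. Clca4b, a relative of the goblet cell protein Clca1, had one of the smallest p-values of the pooled test, at 34.2 and 36.5 CPM in the controls, 678 and 589 in the model, 503 and 366 with mesalazine, and 472 and 254 with Kuiyangling (log2 change 3.71, SE 0.36, adjusted p = 0.00433). The controls were almost equal and every DSS library was far above them. Tgm2, a protein cross-linking transglutaminase, was at 28.3 and 23.6 CPM in the controls against 169 and 189 (model), 80.1 and 78.9 (mesalazine) and 125 and 72.2 (Kuiyangling) (log2 change 2.11, SE 0.28, adjusted p = 0.012). Ly6a and Clu, other markers used for reprogrammed crypts, gave log2 changes of -0.098 and -0.49. Without control 2 the 4 shifted members had adjusted p of 0.0688 to 0.391.

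Some epithelial transport and metabolic genes that rose were picked for a narrow DSS range. Alpi, intestinal alkaline phosphatase, had the narrowest DSS range among the higher genes, 0.41 on the log2 scale, at 68.9 and 65.5 CPM in the controls, 114 and 145 in the model, 127 and 129 with mesalazine, and 152 and 146 with Kuiyangling (log2 change 1.01, SE 0.22, adjusted p = 0.0484). Ggt1, which breaks down extracellular glutathione, was at 7.78 and 3.70 CPM in the controls, 42.3 and 35.8 in the model, 34.7 and 41.2 with mesalazine, and 44.4 and 27.9 with Kuiyangling (log2 change 2.71, SE 0.36, adjusted p = 0.012), with group changes of 2.76, 2.72 and 2.65 for model, mesalazine and Kuiyangling. Ak4, a mitochondrial adenylate kinase, gave log2 change 1.83, SE 0.28, adjusted p = 0.0157. The amino acid transporter subunit Slc3a1 (log2 change 1.08, SE 0.23, adjusted p = 0.0485), the Cdc42 effector Cdc42ep2 (log2 change 1.17, SE 0.23, adjusted p = 0.0331) and Vat1 (log2 change 1.09, SE 0.23, adjusted p = 0.0454) were the other narrow ones. Their groups were not all equal: Vat1 changed by 0.74, 1.27 and 1.28 in model, mesalazine and Kuiyangling. Slc51a, the basolateral bile acid transporter, stood at 64.5 and 41.6 CPM in the controls and ran from 136 to 498 CPM, with a median of 243, over the DSS libraries (log2 change 2.27, SE 0.41, adjusted p = 0.0253), and Guca2b, the uroguanylin hormone that drives fluid secretion, gave log2 change 1.80, SE 0.39, adjusted p = 0.0474. These 2 were the shifted members among 27 genes of colonocyte absorption and transport, whose median was -0.31. Leaving out control 2, the adjusted p was 0.38 for Alpi, 0.104 for Ggt1 and 0.199 for Ak4.

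Common colonocyte markers did not pass. Slc26a3, the chloride-bicarbonate exchanger, gave log2 change -0.99, SE 0.41, adjusted p = 0.209. The water channel Aqp8 gave log2 change -2.11, SE 0.49, adjusted p = 0.0566, and carbonic anhydrase 1 (Car1) gave log2 change 0.88, SE 0.39, adjusted p = 0.23. Called lower but overlapping were Scnn1a, Slc15a1 and Atp12a. Atp12a, the colonic proton pump, was called (log2 change -5.73, SE 1.002, adjusted p = 0.0236) with 21.6 and 885 CPM in controls and 0.283 to 63.1 CPM over DSS. Most of that change rests on control 2, without which it was not called (log2 change -1.34, adjusted p = 0.694).

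Mptx1 had the largest fall and kept its call without control 2 (adjusted p = 3.11e-05). It encodes mucosal pentraxin, a secreted protein of the colon epithelium, and stood at 134 and 2151 CPM in the controls, 2.77 and 3.65 in the model, 0.637 and 1.17 with mesalazine, and 2.35 and 1.97 with Kuiyangling (log2 change -9.26, SE 0.75, adjusted p = 0.00293). The controls themselves differed widely, but every DSS value was far under the lower control. Tgm3, the transglutaminase of surface and squamous epithelium, was at 116 and 1479 CPM in the controls against 13.1 and 4.18 (model), 0.849 and 1.63 (mesalazine) and 12.3 and 69.2 (Kuiyangling) (log2 change -6.70, SE 0.82, adjusted p = 0.00771). Kuiyangling 2 came close to control 1 and mesalazine 1 was lowest. Ang4, a bactericidal ribonuclease, was nearly level across DSS, at 31.6 and 402 CPM in the controls and ran from 10.3 to 21.6 CPM, with a median of 16.02, over the DSS libraries (log2 change -3.79, SE 0.61, adjusted p = 0.0173), and rests on control 2: without it the log2 change was -1.01 (adjusted p = 0.465). Tgm3 without control 2 had a log2 change of -3.93 (adjusted p = 0.0881). Albumin (Alb) and Nxpe2 also stayed called without control 2; both were higher in control 1, at 18.9 against 0.863 CPM for Alb and 103 against 37.7 CPM for Nxpe2. Without control 1 neither Alb (log2 change -1.68, adjusted p = 0.35) nor Nxpe2 (log2 change -1.21, adjusted p = 0.0837) was called.

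Goblet cell genes gave 2 shifted members of 17, both lower, with a list median of -0.66. Clca1, a secreted protein of mucus, stood at 1719.8 and 5697 CPM in the controls, 850.4 and 989 in the model, 452 and 427 with mesalazine, and 762 and 739 with Kuiyangling (log2 change -2.46, SE 0.35, adjusted p = 0.0132). Ern2, the goblet cell stress sensor IRE1 beta, was at 77.6 and 76.6 CPM in the controls against 37.4 and 20.5 (model), 23.4 and 32.5 (mesalazine) and 27.1 and 41.8 (Kuiyangling) (log2 change -1.35, SE 0.26, adjusted p = 0.0355), with nearly equal controls. Muc2, the gel-forming mucin, gave log2 change -0.80, SE 0.35, adjusted p = 0.231 and was not called. The membrane mucin Muc4, outside the list, gave log2 change -1.22, SE 0.23, adjusted p = 0.0313. Without control 2, Clca1 and Ern2 had adjusted p of 0.171 to 0.271, and the log2 change of Clca1 was -1.36.

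Of 11 tested tuft cell genes, 5 fell, and 9 lay below both controls in all DSS libraries (11.3% of all tested genes did), with a median of -1.84. Trpm5, the cation channel of taste transduction, was at 13.9 and 32.4 CPM in the controls, 5.79 and 6.63 in the model, 4.03 and 3.44 with mesalazine, and 2.60 and 2.75 with Kuiyangling (log2 change -2.54, SE 0.3002, adjusted p = 0.00721). The kinase Dclk1, the usual tuft marker, was at 15.5 and 26.9 CPM in the controls against 6.60 and 5.44 (model), 3.54 and 6.13 (mesalazine) and 3.84 and 3.43 (Kuiyangling) (log2 change -2.16, SE 0.29, adjusted p = 0.012). Both controls lay above every DSS library for each gene, model libraries were nearest to the controls for Trpm5, and the Kuiyangling libraries were lowest for Trpm5. Sh2d6 (log2 change -2.53, SE 0.37, adjusted p = 0.0137), Sh2d7 (log2 change -2.20, SE 0.34, adjusted p = 0.0161) and the actin regulator Avil (log2 change -1.88, SE 0.33, adjusted p = 0.0245) were the other 3, and Pou2f3, the lineage-defining factor, was below both controls in every DSS library without a call (log2 change -1.84, SE 0.48, adjusted p = 0.0797). The list summed to 91.5 and 182 CPM in controls and 27.3 to 55.1 CPM over DSS. Without control 2 none was called (adjusted p 0.104 to 0.391), and without control 1 all 5 were. Sh2d6 and Avil moved to log2 changes of -1.59 and -1.16 without control 2. Enteroendocrine genes had a median of -0.03 over 14, with Insl5, a colonic peptide hormone, called lower but overlapping (log2 change -2.03, SE 0.43, adjusted p = 0.0471), and not called without control 2 (log2 change -1.32, adjusted p = 0.529).

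**Figure D4:**
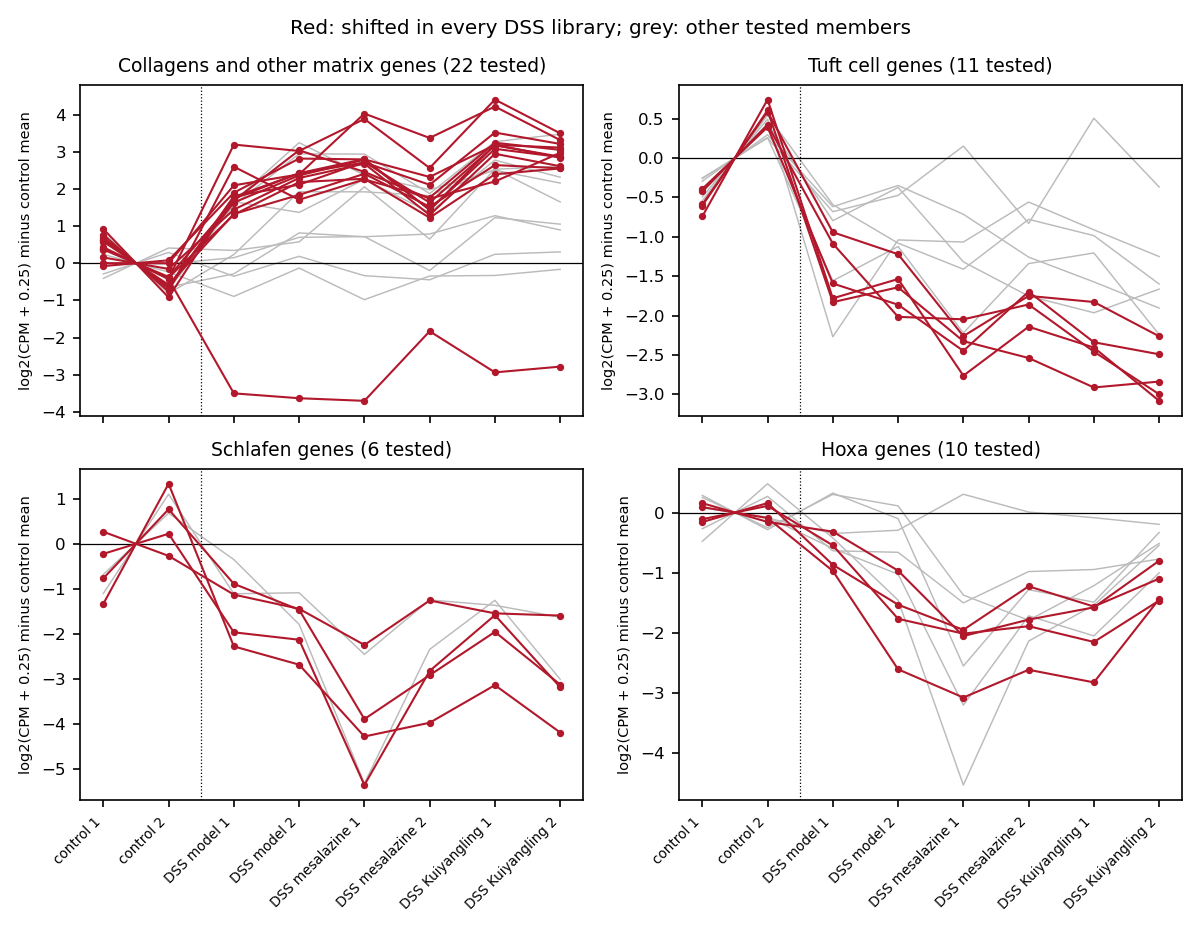
Log2(CPM + 0.25) minus the control mean, by library, for collagens and matrix genes, tuft cell genes, schlafen genes and Hoxa genes; lines join the values of 1 gene, red for shifted genes and grey for other tested members. The red collagen lines lie above both controls in all DSS libraries except for the falling Col8a1, and the red lines of the other 3 panels lie below both controls in every DSS library.

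Over 20 tested interferon-stimulated genes the median was -1.79, and 9 lay below both controls in all 6 DSS libraries (11.3% of all tested genes did). By edgeR 1 was called, with 17 at an unadjusted p under 0.05 (2756 of all 13381 tested genes had one), and by DESeq2 5. The gene called by edgeR was Oas2, an antiviral oligoadenylate synthetase, at 213 and 470.2 CPM in the controls, 106 and 67.6 in the model, 13.4 and 55.6 with mesalazine, and 92.5 and 32.6 with Kuiyangling (log2 change -2.58, SE 0.49, adjusted p = 0.0314). Group medians of the list were -0.91 for the model, -2.74 for mesalazine and -1.65 for Kuiyangling, and the difference between groups was not tested. Their sum was lowest in mesalazine 1, at 638 CPM, against 1149 to 3730 CPM in the other DSS libraries and 4154 and 8865 CPM in controls. Outside the list, Ifi27l2a, an interferon-induced mitochondrial protein, was at 93.9 and 324 CPM in the controls against 48.8 and 65.7 (model), 18.2 and 22.6 (mesalazine) and 16.6 and 16.7 (Kuiyangling) (log2 change -2.96, SE 0.35, adjusted p = 0.00721). Trim25, the ubiquitin ligase that activates RIG-I, gave log2 change -1.33, SE 0.28, adjusted p = 0.0441. Without control 2, Oas2 had an adjusted p of 0.375 and Ifi27l2a one of 0.0688 at a log2 change of -1.80. For Trim25 it was 0.479.

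Schlafens, interferon-responsive regulators of translation and lymphoid growth, were picked as a family by symbol after the values were seen. Of 6 tested, Slfn1, Slfn2, Slfn4 and Slfn9 were shifted lower, with a family median of -2.33. Slfn4 was at 2875 and 3918 CPM in the controls, 858 and 765 in the model, 81.4 and 473 with mesalazine, and 1118 and 368 with Kuiyangling (log2 change -2.62, SE 0.53, adjusted p = 0.0369). Mesalazine 1 was lowest and Kuiyangling 1 highest of the DSS libraries, and all lay below both controls. Slfn1 gave log2 change -4.27, SE 0.56, adjusted p = 0.012. These genes are neighbours with similar sequence, and counting could have split reads between them. The adjusted p without control 2 ran over 0.121 to 0.291, and the log2 change of Slfn1 was -2.35.

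Positional and ion transport genes made up further lower groups. Hoxa3, Hoxa5, Hoxa6 and Hoxa7, which set position along the gut, were shifted lower among 10 tested Hoxa genes (median -1.31), for example Hoxa6 (log2 change -2.22, SE 0.44, adjusted p = 0.0369) and Hoxa3 (log2 change -1.37, SE 0.28, adjusted p = 0.0426). None of the 9 Hoxb or 5 Hoxd genes tested was shifted. Hoxb13, a marker of the most distal colon, was called lower (log2 change -4.70, SE 0.74, adjusted p = 0.0171) with overlap, since Kuiyangling 2 held 23.2 CPM against 19.9 CPM in control 1. Control 2 held 175 CPM, and without it the fall was smaller and not called (log2 change -2.42, adjusted p = 0.31). The 7 tested Hox genes of posterior position summed with their untested members to 184 and 343 CPM in controls and 95.1 to 161 CPM over DSS, and the part of the sampled colon segment in these values was not tested. None of the 4 Hoxa genes was called without control 1 (adjusted p 0.0574 to 0.144) or without control 2 (0.223 to 0.37), nor without Kuiyangling 1 (0.0625 to 0.0991), model 2 (0.0681 to 0.115) or mesalazine 1 (0.0531 to 0.0675). Without Kuiyangling 2 there was 1 call, without model 1 there were 2, and without mesalazine 2 all 4 were called.

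Among Trpm and Trpv channels, Trpm5, Trpm6, Trpv3 and Trpv6 fell, 4 of 9 tested. Trpm6, the magnesium channel of the distal bowel, was at 68.3 and 196 CPM in the controls against 18.2 and 11.8 (model), 9.13 and 29.5 (mesalazine) and 17.9 and 38.0 (Kuiyangling) (log2 change -2.71, SE 0.45, adjusted p = 0.0202). Trpv3, a warmth-sensing channel, gave log2 change -3.22, SE 0.58, adjusted p = 0.0247, and Trpv6, the apical calcium channel, log2 change -6.15, SE 0.996, adjusted p = 0.0214. Trpv6 stood at 1.19 and 7.09 CPM in the controls against 0.0629 and 0.133 (model), 0 and 0 (mesalazine) and 0 and 0.467 (Kuiyangling). All DSS libraries but Kuiyangling 2 lay under 3 counts, so the fitted change of Trpv6 is no bound on its fall. Ano1, a calcium-activated chloride channel, gave log2 change -2.38, SE 0.38, adjusted p = 0.0175. Of 9 tested ciliary and tubulin genes, Tppp3, Ttll6 and Dnah5 were shifted lower (list median -0.64). Tppp3, which promotes tubulin polymerization, had a narrow DSS range of 0.73, at 18.1 and 46.6 CPM in the controls and ran from 2.52 to 4.27 CPM, with a median of 3.28, over the DSS libraries (log2 change -3.32, SE 0.33, adjusted p = 0.00433). In the fit without control 2 the adjusted p was 0.307 for Trpm6 and 0.0688 for Tppp3. Trpv3 (log2 change -1.46, adjusted p = 0.532) and Ano1 (log2 change -1.17, adjusted p = 0.31) moved further towards 0 in that fit, and Trpm6 had a log2 change of -1.76.

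A few other lower genes were picked for a narrow DSS range. Kit, the receptor of mast cells and interstitial cells, stood at 58.1 and 45.8 CPM in the controls, 22.6 and 20.02 in the model, 23.4 and 29.8 with mesalazine, and 28.3 and 22.3 with Kuiyangling (log2 change -1.10, SE 0.21, adjusted p = 0.0311). The DSS values lay within 0.57 on the log2 scale. Sema5a, a guidance factor (log2 change -1.01, SE 0.21, adjusted p = 0.0466), the potassium channel subunit Kcnf1 (log2 change -1.498, SE 0.26, adjusted p = 0.0237) and the nuclear envelope protein Tmem43 (log2 change -1.16, SE 0.25, adjusted p = 0.0492) were similarly narrow. Siglecf, a receptor of eosinophils and also of tuft cells, gave log2 change -1.82, SE 0.33, adjusted p = 0.0264, so that 2 of 5 tested eosinophil and mast cell markers fell. Without control 2 the adjusted p was 0.189 for Kit and 0.285 for Siglecf, while Tmem43, with 48.1 CPM in control 1 and 99.5 CPM in control 2, was left with a small change (log2 change -0.55, adjusted p = 0.629). Without control 1 the adjusted p of Kit and Siglecf was 0.116 and 0.0262. B and plasma cell markers (median -2.77 over 11) and MHC class II genes (median -2.09 over 9) had no shifted member by edgeR. At an unadjusted p under 0.05 there were 7 and 8, beside 2756 of all 13381 tested genes, and DESeq2 called 3 and 0. The invariant chain gene Cd74 turned to a log2 change of 0.81 without control 2.

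Clock genes moved in both directions. Dbp, Ciart and Nr1d1, outputs driven by the activator BMAL1, were shifted higher, and Arntl, the gene for BMAL1, lower, 4 of 14 tested, with a list median of -0.08. Dbp was at 2.87 and 2.90 CPM in the controls, 6.98 and 9.41 in the model, 32.3 and 31.9 with mesalazine, and 37.5 and 26.1 with Kuiyangling (log2 change 2.81, SE 0.29, adjusted p = 0.00534). The controls were nearly equal, the model libraries lay in between, and the other 4 were highest: the group changes were 1.503, 3.47 and 3.46, and the difference among DSS groups had an unadjusted p of 0.000119 (adjusted p = 0.491). Arntl was at 48.7 and 88.1 CPM in the controls against 31.5 and 24.7 (model), 12.5 and 17.5 (mesalazine) and 17.8 and 21.3 (Kuiyangling) (log2 change -1.76, SE 0.25, adjusted p = 0.0132). Nr1d1, which represses Arntl, gave log2 change 1.65, SE 0.33, adjusted p = 0.0379. The labels give no hour of collection. In the fit without control 2 these 4 had adjusted p of 0.0688 to 0.291.

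**Figure D5:**
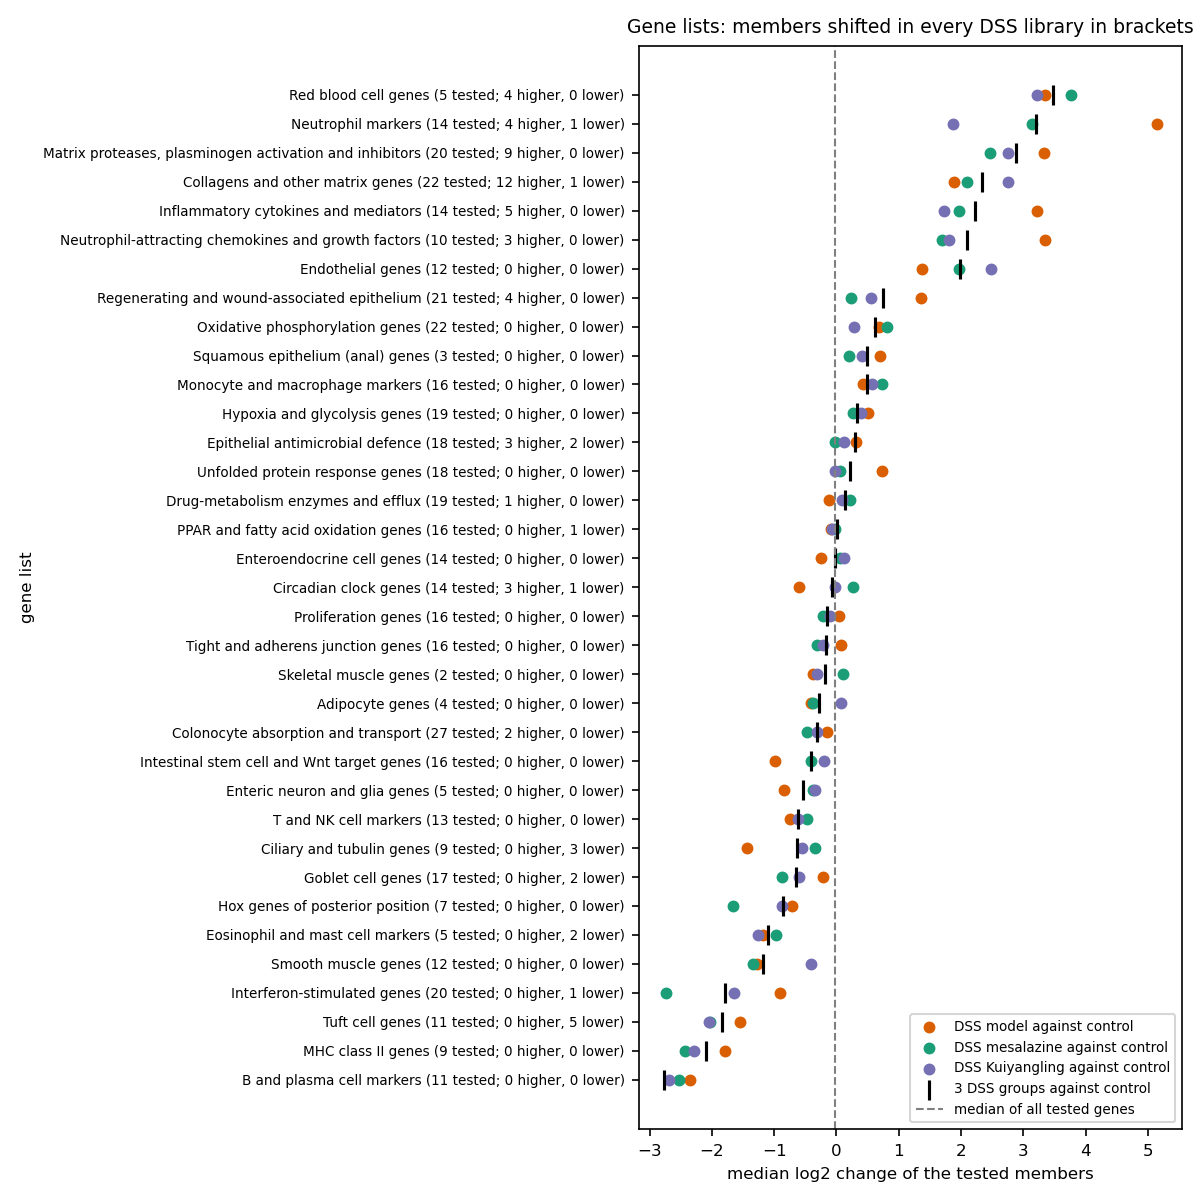
Median log2 change against control of the tested members of each gene list, for the DSS model, mesalazine and Kuiyangling groups (points) and for the 3 groups pooled (black tick); the dashed line is the median of all tested genes, -0.03. Red blood cell and neutrophil lists lie farthest right, and the B cell list, with 0 shifted members, farthest left.

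The 3 DSS groups share the same controls, so their changes are given side by side. Against controls alone, edgeR called 33 genes for the model (0.247%; higher 0.194%, lower 0.0523%), 90 for mesalazine (0.673%; higher 0.433%, lower 0.239%) and 32 for Kuiyangling (0.239%; higher 0.187%, lower 0.0523%). Of the 110 shifted higher genes, 26, 50 and 24 were called in the model, mesalazine and Kuiyangling on their own, and of the 164 lower genes 7, 27 and 7. Only 14 genes were called in all 3, and 184 of the 274 in none. Median distances from the control mean were 2.09 and 2.43 in model 1 and 2, 2.72 and 2.05 in mesalazine 1 and 2, and 2.69 and 2.48 in Kuiyangling 1 and 2 for higher genes. For lower genes they were -1.64, -1.77, -2.15, -1.76, -1.72 and -1.67 in the same order, and mesalazine 1 held the lowest value for 77 of the 164.

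The F test of edgeR for any difference among the 3 DSS groups called 0 genes. At an unadjusted p under 0.05 there were 513 (3.83%), and DESeq2 called 51. Among the 274 shifted genes 46 (16.8%) had an unadjusted p under 0.05. The F test and the pooled test share each gene's estimated spread, so choosing called genes can by itself raise this share. The shifted gene with the smallest adjusted p in the F test stood at 0.486. That gene was Mfsd2a, a lysophospholipid transporter, at 2.68 and 2.34 CPM in the controls against 40.6 and 33.9 (model), 9.91 and 6.83 (mesalazine) and 10.1 and 13.9 (Kuiyangling). The model libraries were highest and all 6 lay above the controls, with group log2 changes of 3.89, 1.73 and 2.25 (log2 change 2.62, SE 0.31, adjusted p = 0.00721 for the pooled change). Phf11b, an interferon-regulated zinc finger gene, barely fell in the model: group changes were -0.197, -2.22 and -1.55, and its DSS values came within 0.06 log2 units of control 2. Depp1 (0.14, 4.02 and 1.89), Tef (0.01, 1.75 and 1.56) and Phf11a (-0.32, -3.85 and -2.96) were called over the pooled groups but each overlapped the controls through 1 model library. They belong to 19 genes, 3 higher and 16 lower, that were called without being beyond both controls in every DSS library.

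Gene length moved with the libraries. The Spearman correlation across genes between a gene's length and its level relative to the mean of all libraries was 0.444 and 0.267 in controls, -0.0959 and -0.433 in the model, -0.534 and 0.284 with mesalazine, and -0.0195 and 0.385 with Kuiyangling (genes are not independent replicates). Shifted higher genes had a median length, worked out from counts and FPKM, of 2526 bases and lower genes one of 4681, against 3475 over all tested genes. With the length trend removed, 228 genes were shifted, 203 of them shared with the 274 (84 higher, 119 lower). The part of length in single genes was not tested.

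Promoters of the shifted genes were searched for 5 motifs, on both strands, in the 300-base RefSeq windows from 250 bases before the start to 50 after. Of 110 higher genes 73 had 1 promoter in the table, of 164 lower genes 107, and of all tested genes 8518. The TATA box (TATAAA) stood in 30.1% of higher, 10.3% of lower and 7.84% of all promoters. AP-1 (TGANTCA) stood in 11% of higher, 6.54% of lower and 5.1% of all, and NF-kB (GGG, any 2 bases, then TTTCC) in 4.11%, 1.87% and 1.67%. HNF4 (CAAAGTNCA) gave 4.11%, 1.87% and 1.29%. For NF-kB and HNF4 alike, these were only 3 of the 73 higher and 2 of the 107 lower promoters. Cxcl2 and Cxcl3, printed above, were among the 3 with NF-kB letters. CDX (TTTATNG) gave 20.5%, 11.2% and 7.49%, but its reverse strand overlaps the TATA box, and matches apart from a TATA box were in 5.48%, 9.35% and 4.87%. Besides the proteases printed above, AP-1 letters lay, among others, in the promoters of Il1a and Plaur, which rose, and of Slfn4 and Trpv3, which fell. A match describes letters only.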

How the data were processed

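Polyadenylated RNA of colonic mucosa from 8 mice was sequenced after stranded library preparation (per the labels' protocols, RNA integrity number at least 7). The deposited counts are whole reads per gene made by the authors, with Trimmomatic and HISAT2 named in the submitters' processing notes. The deposited FPKM are the authors' values. Gene lengths were worked out from the deposited data, as each gene's median ratio of counts to FPKM and library total. FPKM multiplied by that length and the total gave the counts back, which shows only that 1 length per gene served all libraries. Build, annotation, counter and strand setting are not given in the sources used here. Antisense or overlapping genes could therefore share reads. Column headers named group and replicate, and 1 mesalazine header was misspelled and matched by its number.

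Genes passing filterByExpr were fitted in 1 model of 4 group means over all 8 libraries (edgeR 4.0.16 in R 4.3.3, TMM, quasi-likelihood F tests). The mean of the 3 DSS groups was tested against control, with a call at a Benjamini-Hochberg adjusted p under 0.05. A shifted gene was called and had all 6 DSS libraries beyond both controls on log2 CPM (prior count 2). Common biological coefficient of variation was 0.287. Controls at 0 counts were replaced by a floor of 3 counts in total, and 1 to 3 control counts gave a ratio with an exact binomial 95% interval. These folds compare pooled counts of the DSS and control libraries, whereas the adjusted p beside them tests the fitted group means. DESeq2 1.42.0, limma 3.58.1 on log2(FPKM + 1) and other settings were alternatives.

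Members and gene lists were chosen with earlier results of these data known. Named genes were, among shifted genes of at least 5 CPM, the 12 highest and 12 lowest log2 changes, the 6 narrowest and 4 most abundant per direction, the 6 with the smallest p among DSS groups, up to 2 per list and a fixed panel. Other named genes were chosen after their values were seen, some rule genes were left out for space, and some items are not reported here. The fit was tested on simulated counts for this comparison (13183 genes, 50 altered per fold size). It found 18% of genes altered 2-fold, 96% of those at 4-fold, 98% at 8-fold and 100% at 16-fold, and made 15 false calls. Simulated counts were drawn independently with the fit's own dispersions. They held no difference of whole libraries, such as that of control 2 or the length trend.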

Additional observations from a re-analysis of the deposited data

Results flagged for a closer look

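Of 96 measures examined over the 6 DSS libraries, 6 had 1 library whose distance from its nearest neighbour was more, relative to the whole range, than Dixon's critical value at 95%, and chance flags about 1 in 20. Mesalazine 1 stood apart in 3: Trim25, at 114.9 CPM, was below the other DSS libraries, its mean Spearman correlation with the other libraries was 0.940, and ribosomal protein genes took 12.7% of its counts against 4.14% to 6.68% in the other DSS libraries. Model 1 stood apart in the Wnt target Axin2, at 2.39 CPM, and in the adipocyte gene Cfd, at 2.52 CPM. Model 2 stood apart in Il6, at 1.79 CPM.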

How the results depend on the processing

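With all 8 libraries edgeR called 293 genes (113 higher, 180 lower), of which 274 were shifted (110 and 164), and 33, 90 and 32 for model, mesalazine and Kuiyangling alone. DESeq2, run on 17353 genes, called 965 (519 and 446), with 831 shifted (486 and 345). It called 435, 982 and 349 for the single groups, and 51 among the DSS groups. Without the filter on low counts the numbers were 1169 (465 and 704), 891 shifted (428 and 463), 487, 1090 and 451, and 84 among groups. By limma on log2(FPKM + 1) they were 103 (54 and 49), 100 shifted (52 and 48), and 18, 36 and 2. With a pseudocount of 0.1 they were 87 (59 and 28), 85 shifted (58 and 27), and 40 and 19 for mesalazine and Kuiyangling. With no FPKM filter they were 23 (9 and 14), all 23 shifted, and 2, 4 and 1. DESeq2 size factors in edgeR gave 297 and 279 shifted, and a fit on pooled DSS against control alone 232 and 230. The gene length trend removed left 241, and 37 for mesalazine. Same-numbered libraries had correlations of -0.31 to 0.16. With 2 libraries a group, these cannot decide whether replicate numbers paired the animals. A fit with the replicate block called 281, with 266 shifted and 50 and 65 for model and Kuiyangling. Block and length correction together gave 217, with 55 for Kuiyangling. Leaving out 1 library gave 3 (without control 2) to 2249 calls (without mesalazine 2), 0 to 1159 higher and 3 to 1090 lower, 3 to 1894 shifted (0 to 1076 higher, 3 to 818 lower), 1 to 159 for the model, 1 to 2717 for mesalazine, 1 to 171 for Kuiyangling and 0 among the DSS groups in each case. Leaving out control 2 and mesalazine 1 together, chosen after seeing the data, gave 126 (66 and 60), 124 shifted (65 and 59), 194, 23 and 85, and 62 among groups. Directions turned for Cd74, Gzmb and Acta1. None of them was called with all 8 libraries, though each was called in at least 1 other setting. Leaving out 1 library gave -3.55 to 0.81, -2.17 to 1.003 and -1.999 to 0.52, each highest without control 2. Leaving out control 2 and mesalazine 1 together gave 0.82, 0.79 and 0.37. The 67 called named genes kept their direction in every setting that could test them. Most of them had been selected with every DSS library beyond both controls, so this was largely set in advance. The causes were not tested. With 2 animals a group, low counts and changes near 2-fold are at the limit of this design.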

Other observations

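A further set of lower genes encode signalling proteins known from haematopoietic cells, some of which tuft cells also use. They were chosen after their values were seen. Spib, an Ets factor of B cells and M cells, stood at 8.03 and 24.2 CPM in the controls against 6.54 and 4.04 (model), 3.18 and 4.38 (mesalazine) and 4.02 and 2.44 (Kuiyangling) (log2 change -2.002, SE 0.39, adjusted p = 0.0355). Rgs13, a G-protein regulator, was at 7.68 and 11.9 CPM in the controls against 3.96 and 4.11 (model), 2.41 and 3.85 (mesalazine) and 2.72 and 1.25 (Kuiyangling) (log2 change -1.74, SE 0.35, adjusted p = 0.0369). Alox5, the 5-lipoxygenase of leukotriene synthesis, gave log2 change -2.78, SE 0.38, adjusted p = 0.0132, Plcg2, a phospholipase downstream of immune receptors, log2 change -1.62, SE 0.28, adjusted p = 0.0236, and the phosphoinositide 3-kinase regulator Pik3r5 log2 change -2.19, SE 0.33, adjusted p = 0.0152. Each lay below both controls in all 6 DSS libraries. Without control 2 none of these 5 was called, with adjusted p of 0.56 for Spib, 0.385 for Rgs13, 0.189 for Alox5, 0.333 for Plcg2 and 0.228 for Pik3r5. B and plasma cell markers, with no shifted member among 11, summed to 84.3 and 118 CPM in the controls and 38.8 to 125 CPM over the DSS libraries, and their part in these values was not tested.

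Genes of oxidative phosphorylation lay above both controls in all 6 DSS libraries for 13 of 22 tested members, with a median of 0.62. By edgeR 0 were called, with 9 at an unadjusted p under 0.05, and by DESeq2 2. Genes of hypoxia and glycolysis lay above both controls for 8 of 19, with a median of 0.34, 0 called by edgeR, 7 at an unadjusted p under 0.05 and 2 called by DESeq2. Of all tested genes, 14.3% lay above both controls in this way, and 2756 of 13381 had an unadjusted p under 0.05 by edgeR.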
